A study of Mus musculus with 12 samples.

Results

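The growth hormone and IGF axis of mouse liver was described through 10 genes chosen by symbol: the receptor gene Ghr, the transcription factors Stat5a and Stat5b, the repressor Bcl6, the feedback inhibitors Cish and Socs2, the hormone Igf1, its carrier subunit Igfals, and the binding proteins Igfbp1 and Igfbp2. All 10 were found in the authors' deposited table, at 12 of its 27109 loci, with Cish and Bcl6 at an additional locus each. The study asked how loss of the transcription factor ATF4 changes liver RNA with and without endoplasmic reticulum (ER) stress. The 4 groups, of 3 libraries each, were LsATF4-KO mice (genotype LsATF4-/-, a liver-specific knockout of Atf4) given 1 mg/kg tunicamycin, LsATF4-KO mice given 0.3% DMSO, wild-type mice given 1 mg/kg tunicamycin, and wild-type mice given 0.3% DMSO. All mice were C57BL/6, the agents were injected intraperitoneally, and livers were taken 6 h later. Tunicamycin blocks N-linked glycosylation of proteins in the ER, and DMSO was its solvent. The promoter that drives the deletion, the deleted exons, the sex and the age of the mice, and whether wild-type mice carried an unrecombined allele are details that the sources used here do not give. The labels do not say that the libraries of a group came from separate mice. The p-values thus rest on libraries whose spread may be technical, not on mice known to be separate.

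Growth hormone from the pituitary binds its receptor on hepatocytes and activates the kinase JAK2, which phosphorylates STAT5A and STAT5B. STAT5 then enters the nucleus and turns on Igf1, Igfals, Socs2 and Cish, while the products of Socs2 and Cish dampen the receptor's signal. Liver is the main source of circulating IGF1, which travels in a complex with IGFBP3 and the acid-labile subunit encoded by Igfals. IGFBP1 and IGFBP2 bind IGF1 outside that complex, and Igfbp1 is known as a gene that insulin represses and that fasting and stress raise. BCL6 represses STAT5 targets in liver, and the pattern of growth hormone pulses sets many of the differences between male and female liver.

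The authors' deposited table gives 1 FPKM (fragment counts corrected for the length of the transcript and the depth of the library) per locus and group, so no value has a spread between libraries. A difference was called where the authors' Cuffdiff test had run and its deposited q was under 0.05, and only called differences are described as higher, lower, raised or reduced. The 3 LsATF4-KO DMSO libraries were alone on sequencing lane 5 and the other 9 were on lane 4, and wherever the LsATF4-KO DMSO group is compared its lane and its identity cannot be told apart. The Atf4 locus, which the table merges with Cacna1i, stood at 114 FPKM in LsATF4-KO mice with tunicamycin against 356 in wild-type mice with tunicamycin, a called log2 difference of -1.64. With DMSO it stood at 22.8 FPKM in LsATF4-KO mice and 46.9 in wild-type mice (log2 difference -1.04, deposited q = 0.270, not called), and such a merged value is no measure of the extent of deletion. Summed FPKM of 8 hepatocyte marker loci was 15734, 21297, 18892 and 26429 in LsATF4-KO with tunicamycin, LsATF4-KO with DMSO, wild type with tunicamycin and wild type with DMSO, with Alb listed at 0 in all 4 groups because the authors' test flagged it as too deep to process. The LsATF4-KO tunicamycin group stood apart in RNA of other tissues. In the same order of groups, 11 adrenal marker loci summed to 1351, 6.78, 23.6 and 9.28 FPKM, 9 skeletal muscle markers to 370.5, 0.961, 5.02 and 0.530 FPKM, and 6 fat markers to 139, 6.08, 8.69 and 2.38 FPKM. Their part in the results for that group was not tested.

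Tunicamycin was followed by lower RNA of most of the 10 genes in both genotypes and by much higher Igfbp1. In wild-type mice the authors' deposited table called 6 members lower and 1 higher with tunicamycin than with DMSO, where 19.0% of all 14998 tested loci were called lower and 18.1% higher. In LsATF4-KO mice it called 7 members lower and 1 higher, where 14.8% of all 15534 tested loci were called lower and 18.1% higher. The median log2 difference of the members was -1.11 in wild-type mice and -1.02 in LsATF4-KO mice, beside medians of -0.02 and 0.01 over all tested loci. Between genotypes fewer members differed. With tunicamycin, 2 of the 10 were lower and 0 higher in LsATF4-KO than in wild-type mice (1 higher and 3 lower at an unadjusted Cuffdiff p under 0.05), against 2.19% lower and 3.73% higher of 14919 tested loci in the authors' deposited table. With DMSO, 1 of the 10 was lower and 0 higher in LsATF4-KO mice (0 higher and 3 lower at an unadjusted Cuffdiff p under 0.05), against 1.47% lower and 1.39% higher of 14788 tested loci. As liver is a mixture, fewer cells of a type and less RNA per cell cannot be told apart in these values.

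**Figure D1:**
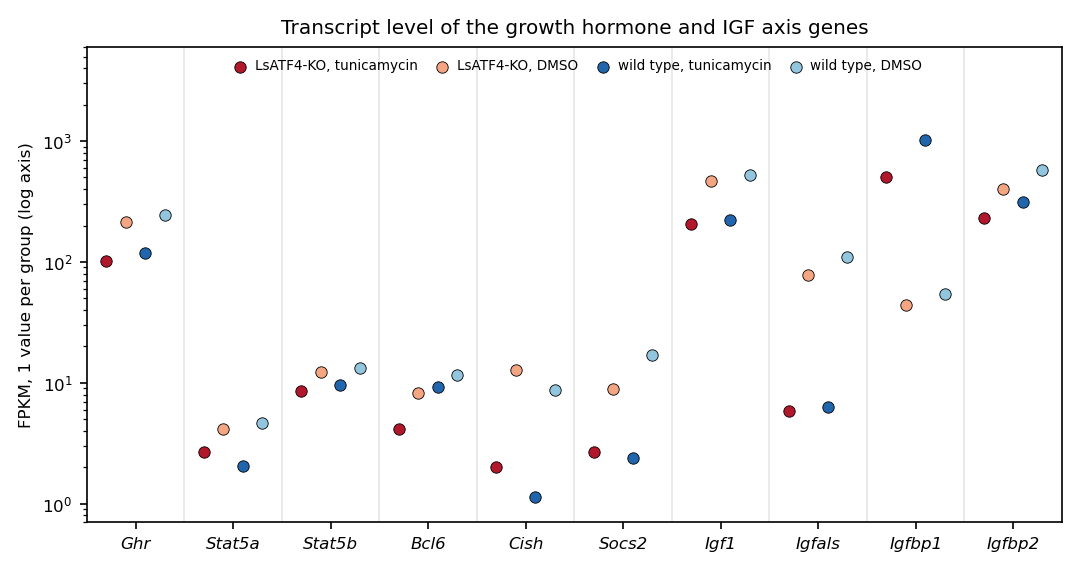
Levels of the 10 genes in the authors' deposited table, as FPKM on a log axis, with 1 point per group and no error bar because the table pools the 3 libraries of a group. Igfbp1 is the only member whose tunicamycin points lie above its DMSO points, and Igfals, Cish and Socs2 lie lowest relative to DMSO.

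The promoters of these genes are shown here because the axis acts through STAT5, whose dimers bind the letters TTCNNNGAA. RefSeq promoter windows of build GRCm38.p6, from 250 bases before to 50 bases after each annotated start, were matched by symbol for 9 of the 10 genes (16 windows), and Socs2 was not matched. The letters were searched on both strands, and since they read the same on either strand each match was counted once. They stood in 5 windows of 3 genes, Cish, Bcl6 and Igfals, with 8 matches in all. Of all 32851 windows, 8.30% hold the letters at least once, 0.457% at least 2 times and 0.0335% at least 3 times. The letters TGATGCAA, which ATF4 binds together with a C/EBP partner, stood in 0 of the 16 windows and in 0.895% of all windows. The stretches below carry the matches in capitals, 5′ to 3′ on the gene's strand, and a match of letters is a description of the window and not a site of binding.
Cish, chr9:107296654-107296683, plus strand: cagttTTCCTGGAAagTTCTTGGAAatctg
Igfals, chr17:24878133-24878221, plus strand: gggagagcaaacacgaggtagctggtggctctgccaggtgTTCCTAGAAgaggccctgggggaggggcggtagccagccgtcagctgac
Bcl6, chr16:23981323-23981491, minus strand: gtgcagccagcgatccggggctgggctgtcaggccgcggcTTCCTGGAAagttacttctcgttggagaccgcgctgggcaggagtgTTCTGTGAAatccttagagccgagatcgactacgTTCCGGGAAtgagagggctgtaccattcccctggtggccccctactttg
The matches of Cish begin at bases 1 and 12 counted from the RefSeq start, inside an untranslated exon of a longer GENCODE transcript. The Igfals match begins 58 bases before a RefSeq start and lies in an intron of the longer gene model. The Bcl6 matches begin 168, 122 and 88 bases before an internal start, in an intron. The remaining matches were 1 in another Bcl6 window and 1 in another Igfals window.

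Ghr, the growth hormone receptor gene (mm9 chromosome 15, 3267730 to 3533352), was reduced with tunicamycin in each genotype. Its level in the authors' deposited table was 102 FPKM in LsATF4-KO with tunicamycin, 213 in LsATF4-KO with DMSO, 117 in wild type with tunicamycin and 244 in wild type with DMSO. Both tunicamycin groups thus lay below both DMSO groups. The deposited log2 fold was -1.06 in LsATF4-KO mice (2.09-fold lower, q = 0.000396) and -1.05 in wild-type mice (2.08-fold lower, q = 0.000747) by the authors' Cuffdiff test. Between genotypes the authors' deposited table gave log2 differences of -0.21 with tunicamycin (q = 0.623) and -0.20 with DMSO (q = 0.704), neither called.

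Stat5a and Stat5b, neighbours that encode the transcription factors which carry the receptor's signal, were not called in any of the 4 comparisons. The table gives them the same interval (mm9 chromosome 11, 100642044 to 100746483), and as near-identical copies their reads can be split between them, so both values are uncertain. Stat5b stood at 8.50 FPKM in LsATF4-KO with tunicamycin, 12.4 in LsATF4-KO with DMSO, 9.67 in wild type with tunicamycin and 13.2 in wild type with DMSO in the authors' deposited table. Stat5a stood at 2.67, 4.11, 2.06 and 4.63 FPKM in the same order of groups. Stat5b was the more abundant of the pair in each group, at 3.18, 3.0, 4.70 and 2.86 times the FPKM of Stat5a. For both genes the tunicamycin groups lay below the DMSO groups without a call. The deposited log2 fold of Stat5b was -0.54 in LsATF4-KO mice (q = 0.0625) and -0.45 in wild-type mice (q = 0.122) by the authors' Cuffdiff test. That of Stat5a was -0.62 (q = 0.405) and -1.17 (q = 0.0805) in the authors' deposited table.

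Bcl6, which encodes a repressor that shares binding sites with STAT5, was lower with tunicamycin in LsATF4-KO mice and lower than in wild type under tunicamycin. At its main locus (mm9 chromosome 16, 23965135 to 23988698) the authors' deposited table gave 4.17 FPKM in LsATF4-KO with tunicamycin, 8.23 in LsATF4-KO with DMSO, 9.25 in wild type with tunicamycin and 11.5 in wild type with DMSO. The LsATF4-KO tunicamycin group was thus the lowest of the 4. The deposited log2 fold was -0.98 in LsATF4-KO mice (q = 0.0288, called) and -0.32 in wild-type mice (q = 0.393, not called), and under tunicamycin the level was lower in LsATF4-KO than in wild-type mice (log2 difference -1.15, 2.22-fold, q = 0.00259) by the authors' Cuffdiff test. The second locus that bears the name held 0.244, 1.22, 0.409 and 0.976 FPKM in the same order of groups. There tunicamycin was called lower in LsATF4-KO (log2 fold -2.32) and in wild-type mice (-1.25), and the authors' deposited table holds no test between genotypes under tunicamycin.

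The feedback inhibitors fell the most among the genes between receptor and hormone. Cish (mm9 chromosome 9, 107194656 to 107204292), whose product CIS blocks STAT5 docking at the receptor, stood at 2.01 FPKM in LsATF4-KO with tunicamycin, 12.8 in LsATF4-KO with DMSO, 1.13 in wild type with tunicamycin and 8.76 in wild type with DMSO in the authors' deposited table. Its log2 fold was -2.68 in LsATF4-KO mice (6.40-fold lower) and -2.96 in wild-type mice (7.76-fold lower), each with a deposited q = 0.000396 by the authors' Cuffdiff test. Cish was also the only member whose LsATF4-KO level exceeded the wild-type level under both treatments, and neither difference was called. The deposited log2 differences were 0.83 with tunicamycin (q = 0.122) and 0.55 with DMSO (q = 0.196). A second Cish locus at 0.158, 0.989, 0.0883 and 0.954 FPKM in the same order of groups had a called fall in wild-type mice (log2 fold -3.43) and an uncalled log2 fold of -2.65 in LsATF4-KO mice in the authors' deposited table.

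Socs2 (mm9 chromosome 10, 94874123 to 94879491), which encodes a suppressor that targets the receptor for degradation, was the only member called between genotypes with DMSO. It stood at 2.67 FPKM in LsATF4-KO with tunicamycin, 8.87 in LsATF4-KO with DMSO, 2.38 in wild type with tunicamycin and 17.0 in wild type with DMSO in the authors' deposited table. The DMSO groups lay apart and the tunicamycin groups lay together. With DMSO it was 1.92-fold lower in LsATF4-KO than in wild-type mice (deposited q = 0.000396 by the authors' Cuffdiff test). With tunicamycin the log2 difference between genotypes in the authors' deposited table was 0.17 (q = 0.791, not called). Tunicamycin lowered it 3.32-fold in LsATF4-KO and 7.14-fold in wild-type mice, each called in the authors' deposited table. Beside the DMSO difference, 7 of 8 endothelial marker loci were called higher in LsATF4-KO than in wild-type mice, with sums of 138 and 90.3 FPKM. Of 9 stellate and fibroblast marker loci 4 were called higher and 0 lower, and of 8 macrophage marker loci 1 higher and 0 lower. Of all tested loci 1.39% were called higher there and 1.47% lower. The part of these cell types in the Socs2 difference was not tested.

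Igf1, the hormone itself (mm9 chromosome 10, 87321800 to 87399792), was reduced in both genotypes with q close to the threshold. It stood at 206 FPKM in LsATF4-KO with tunicamycin, 467 in LsATF4-KO with DMSO, 221 in wild type with tunicamycin and 528 in wild type with DMSO in the authors' deposited table. The tunicamycin groups lay below the DMSO groups, with log2 folds of -1.18 in LsATF4-KO (2.26-fold lower, q = 0.0482) and -1.25 in wild-type mice (2.39-fold lower, q = 0.0478) by the authors' Cuffdiff test. The log2 differences between genotypes in the authors' deposited table were -0.10 with tunicamycin (q = 0.921) and -0.18 with DMSO (q = 0.878), neither called.

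Igfals (mm9 chromosome 17, 25014682 to 25018953), the acid-labile subunit that keeps IGF1 in its circulating complex, had the largest fall of the 10 in both genotypes. It stood at 5.84 FPKM in LsATF4-KO with tunicamycin, 77.7 in LsATF4-KO with DMSO, 6.29 in wild type with tunicamycin and 109 in wild type with DMSO in the authors' deposited table. It was 13.3-fold lower with tunicamycin in LsATF4-KO and 17.3-fold lower in wild-type mice by the authors' Cuffdiff test (q = 0.000396 each). With DMSO the log2 difference between genotypes was -0.49, without a call at a deposited q of 0.0501. Adjusted within this comparison alone, the q of the authors' Cuffdiff test was 0.438. As Igf1 fell less than Igfals, the ratio of Igf1 to Igfals FPKM was 35.3 in LsATF4-KO with tunicamycin and 6.00 in LsATF4-KO with DMSO, and 35.2 in wild type with tunicamycin and 4.85 in wild type with DMSO.

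Igfbp1 (mm9 chromosome 11, 7097789 to 7102549), the insulin-repressed binding protein, moved against the other members. It stood at 500.1 FPKM in LsATF4-KO with tunicamycin, 44.0 in LsATF4-KO with DMSO, 1028 in wild type with tunicamycin and 53.9 in wild type with DMSO in the authors' deposited table. It rose 11.4-fold in LsATF4-KO and 19.1-fold in wild-type mice by the authors' Cuffdiff test (q = 0.000396 each). With tunicamycin it was 2.06-fold lower in LsATF4-KO than in wild-type mice in the authors' deposited table (log2 difference -1.04, q = 0.000396), and with DMSO the log2 difference was -0.29 (q = 0.317, not called). Among the 10 genes Igfbp1 had the highest FPKM in both tunicamycin groups and the 5th highest in both DMSO groups. Igfbp2 (mm9 chromosome 1, 72870516 to 72899055), its relative, fell in both genotypes. It stood at 231, 400.2, 312 and 579 FPKM in LsATF4-KO with tunicamycin, LsATF4-KO with DMSO, wild type with tunicamycin and wild type with DMSO in the authors' deposited table. The deposited log2 folds were -0.79 in LsATF4-KO and -0.89 in wild-type mice (q = 0.000747 each by the authors' Cuffdiff test). Between genotypes the authors' deposited table gave -0.43 with tunicamycin (q = 0.126) and -0.53 with DMSO (q = 0.0622), neither called.

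**Figure D2:**
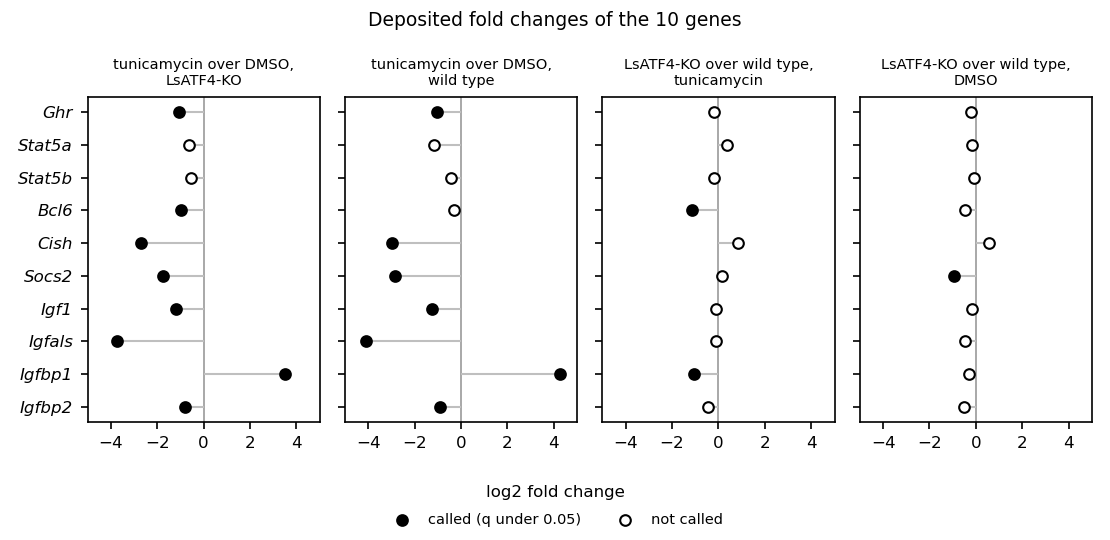
Deposited log2 fold of each of the 10 genes in the 4 comparisons, from the authors' deposited table, with filled points where the difference was called (deposited q under 0.05). Igfbp1 lies to the right of 0 in both tunicamycin comparisons, at 3.51 in LsATF4-KO and 4.25 in wild-type mice, and the other 9 lie to the left in both.

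The binding protein family changed in make-up. Summed over Igfbp1 to Igfbp7, the authors' deposited table held 1362 FPKM in LsATF4-KO with tunicamycin, 1437 in LsATF4-KO with DMSO, 2075 in wild type with tunicamycin and 1798 in wild type with DMSO. Igfbp1 made up 36.7% of that sum in LsATF4-KO with tunicamycin against 3.06% with DMSO, and 49.5% in wild type with tunicamycin against 3.0% with DMSO. Igfbp4, the most abundant binding protein of the DMSO livers and an inhibitor of IGF action, made up 38.8% against 61.8% in LsATF4-KO mice and 31.2% against 59.1% in wild-type mice. Igfbp2 made up 17.0% against 27.8% in LsATF4-KO mice and 15.0% against 32.2% in wild-type mice, tunicamycin against DMSO each time. Set against the hormone, Igfbp1 had 2.42 times the FPKM of Igf1 in LsATF4-KO with tunicamycin and 0.0943 times with DMSO, and 4.64 times in wild type with tunicamycin and 0.102 times with DMSO. These shares have no error, since each rests on 1 deposited value per group.

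**Figure D3:**
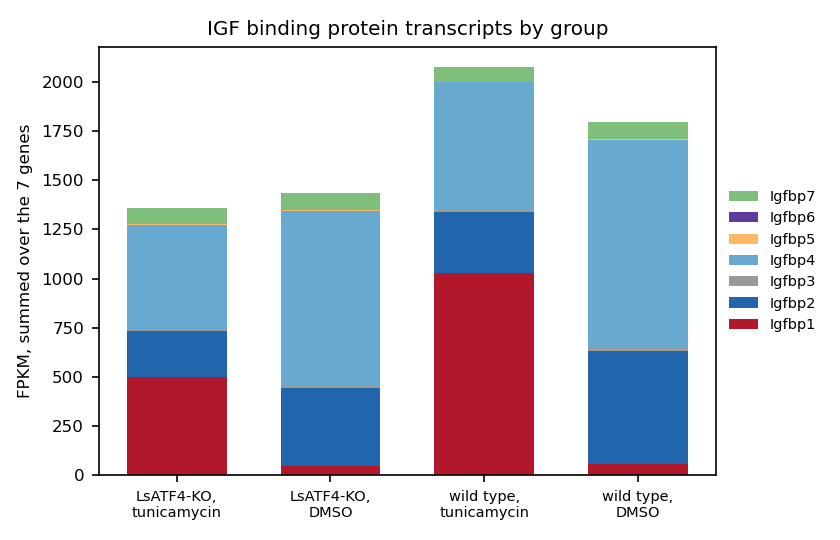
FPKM of the binding protein genes Igfbp1 to Igfbp7 in the 4 groups, stacked to their sum, from the authors' deposited table. Igfbp1 makes up 36.7% of the sum in LsATF4-KO and 49.5% in wild type with tunicamycin, against 3.06% and 3.0% with DMSO.

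Whether the tunicamycin response itself differed between genotypes was tested as the difference of both deposited log2 folds, LsATF4-KO minus wild type, over a standard error taken from the authors' deposited test statistics. None of the 10 members passed an adjusted p under 0.05 (2 at an unadjusted p under 0.05), where 1.01% of the 14510 loci tested did. Of 8 endothelial marker loci 6 passed with a negative difference and 0 with a positive one. Their part in the differences of other genes was not tested. Socs2 had a difference of 1.11 (SE 0.39, 95% interval 0.34 to 1.87, adjusted p = 0.231), computed from the authors' deposited table. Igfbp1 had a difference of -0.75 (SE 0.32, 95% interval -1.37 to -0.13, adjusted p = 0.550). The intervals of both leave out 0, yet neither passed the adjustment over all loci. For Bcl6 the difference was -0.66 (95% interval -1.47 to 0.14), and its call in LsATF4-KO mice alone is not shown to differ from wild type. The intervals of Ghr (-0.73 to 0.71) and Igf1 (-1.25 to 1.41) leave room for unequal responses of about these sizes. The differences of Igfals (0.38), Cish (0.28) and Igfbp2 (0.10) had intervals of -0.24 to 1.00, -0.68 to 1.24 and -0.50 to 0.71. Stat5a and Stat5b had differences of 0.55 and -0.09.

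**Figure D4:**
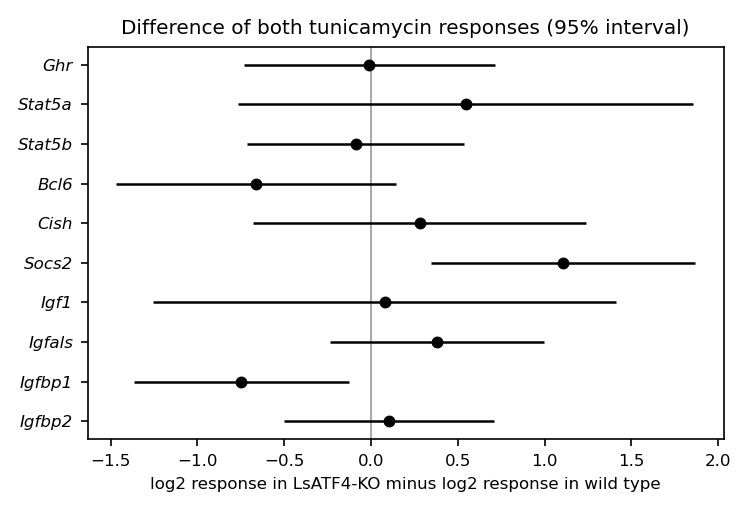
Difference of the tunicamycin response, LsATF4-KO minus wild type, for each of the 10 genes on the log2 scale, with its 95% interval, computed from the authors' deposited table. The intervals of Socs2 (0.34 to 1.87) and Igfbp1 (-1.37 to -0.13) leave out 0, and no gene passed the adjustment over all loci.

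Other genes of growth hormone receptor signalling moved in both directions. Of 18 listed genes, 3 were higher and 7 lower with tunicamycin in LsATF4-KO mice, and 4 higher and 6 lower of 17 tested in wild-type mice, with median log2 folds of -0.21 and -0.01 in the authors' deposited table. The shares over all tested loci were 18.1% higher and 14.8% lower in LsATF4-KO and 18.1% higher and 19.0% lower in wild-type mice, so the counts of higher genes were near the background. The lower calls in each genotype include the Prlr locus, named here after its values were seen. The table merges that locus with Agxt2, so its fall cannot be assigned to either gene. Socs3, an inhibitor that cytokines induce, fell with log2 folds of -2.52 in LsATF4-KO and -2.53 in wild-type mice in the authors' deposited table. Stat3, which carries cytokine signals, fell with log2 folds of -1.23 in LsATF4-KO and -1.01 in wild-type mice in the authors' deposited table. Grb10, an adaptor that restrains the insulin and IGF1 receptors, rose instead. It stood at 5.49 FPKM in LsATF4-KO with tunicamycin, 1.43 in LsATF4-KO with DMSO, 12.0 in wild type with tunicamycin and 1.13 in wild type with DMSO in the authors' deposited table. Its log2 rise was 1.95 in LsATF4-KO and 3.41 in wild-type mice, and the difference of -1.47 passed the test over all loci (adjusted p = 0.0172, computed from the authors' deposited table). Between genotypes under tunicamycin, 2 of the 18 were lower in LsATF4-KO mice and 0 higher (2 lower and 0 higher at an unadjusted Cuffdiff p under 0.05). Of all tested loci 2.19% were lower and 3.73% higher there. The 2 were Grb10 and Irs2, an insulin receptor substrate named here after its values were seen, at 2.71 FPKM in LsATF4-KO and 4.79 in wild-type mice in the authors' deposited table. With DMSO 0 of the 18 differed in either direction (0 at an unadjusted Cuffdiff p under 0.05).

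Of 18 genes for IGF ligands, receptors, binding proteins and their partners, 13 were tested in LsATF4-KO mice, where 3 were higher and 3 lower with tunicamycin, and 12 in wild-type mice, where 1 was higher and 5 lower, in the authors' deposited table. The median log2 folds were 0.21 and -0.40, and the shares over all tested loci were 18.1% higher and 14.8% lower in LsATF4-KO and 18.1% higher and 19.0% lower in wild-type mice. Igfbp4 fell with log2 folds of -0.75 in LsATF4-KO and -0.72 in wild-type mice, and Insr, the insulin receptor gene, with -0.69 in LsATF4-KO and -0.54 in wild-type mice, in the authors' deposited table. Under tunicamycin 5 of 13 were higher in LsATF4-KO than in wild-type mice and 0 lower (0 lower at an unadjusted Cuffdiff p under 0.05), where 3.73% of all tested loci were higher and 2.19% lower: Igf2, Igf1r, Igf2r, Igfbp5 and Igfbp6. With the Cuffdiff p adjusted within this comparison alone, q was 0.0962 for Igf2 and 0.0986 for Igf2r, above the threshold. It was 0.00249 for Igf1r and for Igfbp5, and 0.00824 for Igfbp6. Igfbp5, a binding protein, stood at 2.92 FPKM in LsATF4-KO with tunicamycin, 5.14 in LsATF4-KO with DMSO, 0.962 in wild type with tunicamycin and 5.09 in wild type with DMSO in the authors' deposited table. It fell in both genotypes, with log2 folds of -0.81 in LsATF4-KO and -2.40 in wild-type mice, and its difference of response of 1.59 passed the test (adjusted p = 0.00226, computed from the authors' deposited table). Igf2r, the receptor that clears IGF2, stood at 6.60 FPKM in LsATF4-KO with tunicamycin and 4.29 in wild type with tunicamycin in the authors' deposited table. Igf2, Igf1r and Igfbp6, named after their values were seen, stood at 0.453, 1.54 and 2.40 FPKM in LsATF4-KO with tunicamycin and at 0.163, 0.612 and 0.617 in wild type with tunicamycin. These calls share the group in which adrenal, muscle and fat markers were high (1351, 370.5 and 139 FPKM in LsATF4-KO against 23.6, 5.02 and 8.69 in wild type with tunicamycin), and the part of that RNA in them was not tested. With DMSO 0 of 11 tested genes of this list differed in either direction (0 at an unadjusted Cuffdiff p under 0.05).

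Genes whose liver level depends on the sex-specific pattern of growth hormone were more often called lower than higher with tunicamycin. Of 25 female-biased targets, the authors' deposited table called 1 higher and 11 lower in LsATF4-KO mice (median log2 fold -0.82) and 0 higher and 15 lower in wild-type mice (median -1.23, 0 higher and 16 lower at an unadjusted Cuffdiff p under 0.05). Of 21 tested male-biased targets, 2 were called higher and 10 lower in LsATF4-KO mice (median -0.66) and 5 higher and 8 lower in wild-type mice (median -0.62). Of all tested loci 18.1% were called higher and 14.8% lower in LsATF4-KO mice, and 18.1% higher and 19.0% lower in wild-type mice. In wild-type mice the male-biased list thus split more evenly than the female-biased list, a difference that was not tested. The lower calls of the male-biased list include loci merged with other genes, Selenbp2 and Mup7 in both genotypes and Cyp2d9 in LsATF4-KO mice. Cux2, a female-biased transcription factor, fell with log2 folds of -3.69 in LsATF4-KO and -3.56 in wild-type mice in the authors' deposited table. Acot3, an acyl-CoA thioesterase, had log2 folds of -4.68 in LsATF4-KO and -6.01 in wild-type mice, and Fmo2, a flavin monooxygenase, -2.54 in LsATF4-KO and -2.90 in wild-type mice, all called in the authors' deposited table. The called log2 folds of A1bg, a secreted protein gene, were -3.20 in LsATF4-KO and -2.87 in wild-type mice, and those of the transporter gene Slc22a26 were -1.37 in LsATF4-KO and -1.74 in wild-type mice, in the same table.

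Among male-biased targets, Cyp7b1, an oxysterol hydroxylase, fell with log2 folds of -1.28 in LsATF4-KO and -0.65 in wild-type mice in the authors' deposited table. Ugt2b1, a glucuronosyltransferase, fell with -1.66 in LsATF4-KO and -1.73 in wild-type mice, while Cyp2u1, a fatty acid hydroxylase, rose with 1.89 in LsATF4-KO and 2.04 in wild-type mice. The receptor gene Egfr was called lower in LsATF4-KO mice (log2 fold -1.60) and not in wild-type mice (-0.45), and Elovl3, a fatty acid elongase, was called higher in wild-type mice (2.16) and not in LsATF4-KO mice (0.65), in the authors' deposited table. Neither of these differences of response passed the adjusted test. Under tunicamycin 6 of 21 male-biased targets were lower and 1 higher in LsATF4-KO than in wild-type mice, among them Elovl3 (log2 difference -2.35), Egfr (-0.84) and Cyp7b1 (-0.76) in the authors' deposited table. With the Cuffdiff p adjusted within this comparison alone, q was 0.0855 for Cyp7b1, above the threshold, 0.00249 for Elovl3 and 0.0295 for Egfr. Of 24 female-biased targets tested there, 1 was lower and 2 were higher (4 lower and 5 higher at an unadjusted Cuffdiff p under 0.05). The shares over all tested loci were 2.19% lower and 3.73% higher.

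With DMSO, 6 of 25 female-biased targets were lower and 1 higher in LsATF4-KO than in wild-type mice in the authors' deposited table, with a median log2 difference of -0.39 beside -0.07 over all tested loci, of which 1.47% were called lower and 1.39% higher. The 6 were Cyp3a16 (-4.15), Acot3 (-1.49), Hao2 (-1.29), Atp6v0d2 (-0.99), Slc22a26 (-0.81) and Cux2 (-0.54), and A1bg was higher (1.13). Of 21 male-biased targets 1 was lower, the merged Mup7 locus (-0.70), and 2 were higher, Mup21 (1.34) and C6 (0.81). Such calls depend on the adjustment, as 423 calls over all loci became 105 with q adjusted within this comparison alone. That q of the authors' Cuffdiff test was 0.422 for Cux2 and 0.315 for Mup7, above the threshold. It was 0.0109 for A1bg, 0.0321 for Mup21 and 0.0261 for C6. Mup and Cyp3a genes have near-identical copies, so their values are uncertain, and the lane of the LsATF4-KO DMSO group cannot be told apart from its genotype. Hao2, a hydroxyacid oxidase, had opposite called responses to tunicamycin. It stood at 12.2 FPKM in LsATF4-KO with tunicamycin, 3.37 in LsATF4-KO with DMSO, 4.43 in wild type with tunicamycin and 8.26 in wild type with DMSO in the authors' deposited table. The difference of response was 2.76 on the log2 scale (adjusted p = 2.55e-10, computed from the authors' deposited table). It uses the LsATF4-KO tunicamycin group, where adrenal, muscle and fat markers were high, and the part of that RNA was not tested.

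**Figure D5:**
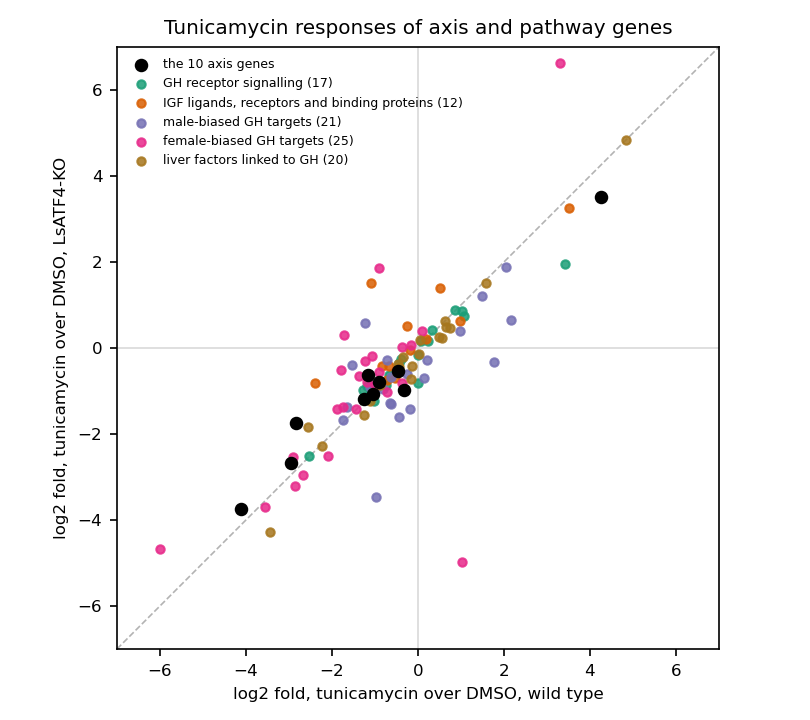
Deposited log2 fold of tunicamycin over DMSO in LsATF4-KO mice against that in wild-type mice, for the 10 members and the genes of the listed pathways, from the authors' deposited table. Igfbp1 stands at the upper right (3.51 in LsATF4-KO, 4.25 in wild type), and Hao2 stands above the diagonal on opposite sides of 0 (1.86 in LsATF4-KO, -0.90 in wild type).

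The liver factors tied to growth hormone action moved in both directions. Of 20 tested genes 3 were higher and 7 lower with tunicamycin in LsATF4-KO mice, and of 21 in wild-type mice 5 were higher and 6 lower, with median log2 folds of -0.28 and -0.13 in the authors' deposited table. At an unadjusted Cuffdiff p under 0.05 there were 5 higher and 7 lower in LsATF4-KO and 7 of each in wild-type mice, and the background shares were 18.1% higher and 14.8% lower of all loci in LsATF4-KO and 18.1% higher and 19.0% lower in wild-type mice. The counts of genes called higher were thus near the background. Onecut1 (HNF6), which acts with STAT5 on liver targets, fell with log2 folds of -4.29 in LsATF4-KO and -3.44 in wild-type mice in the authors' deposited table. Foxa2, a pioneer factor of liver chromatin, fell with -2.29 in LsATF4-KO and -2.22 in wild-type mice, and Cebpa, a hepatocyte factor, with -1.84 in LsATF4-KO and -2.56 in wild-type mice, in the authors' deposited table. Fgf21, a fasting and stress hormone known to impair growth hormone signalling, stood at 7.21 FPKM in LsATF4-KO with tunicamycin, 0.250 in LsATF4-KO with DMSO, 24.0 in wild type with tunicamycin and 0.840 in wild type with DMSO in the authors' deposited table. It rose by 4.85 in LsATF4-KO and by 4.84 in wild-type mice on the log2 scale, and was lower in LsATF4-KO than in wild-type mice under tunicamycin (log2 difference -1.74). Under tunicamycin 4 of 20 were lower in LsATF4-KO mice and 0 higher (6 lower and 0 higher at an unadjusted Cuffdiff p under 0.05), where 2.19% of all tested loci were lower and 3.73% higher. Among the 4 were Lepr, the leptin receptor gene (-1.26), and Klb, the FGF21 co-receptor gene (-0.77), in the authors' deposited table. With DMSO Lepr (-0.97) and Klb (-0.54) were also lower and Onecut1 was higher (1.02) in LsATF4-KO mice.

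The loci with the most similar profile were sought for the 4 members with the widest range, by the root mean square distance of centred log2(FPKM + 1) over the 4 group values, among 8470 loci with at least 5 FPKM in some group. Igfbp1 lay nearest to Sel1l, a component of ER-associated degradation (distance 0.196), then Suco (0.214) and the DNA damage and stress gene Gadd45a (0.240), computed from the authors' deposited table. Igfals lay nearest to Upp2, a uridine phosphorylase (0.112), Tmem25 (0.140) and Pck1, the gluconeogenic enzyme (0.152). Cish lay nearest to 4931408D14Rik (0.0574), the growth factor gene Nrg4 (0.0623) and the sodium pump subunit gene Atp1b1 (0.122). Socs2 lay nearest to Ifit1, an interferon-induced gene (0.0226), Olfml1 (0.120) and Vmo1 (0.125). With 4 values per profile these distances describe the groups and carry no test.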

How the data were processed

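Poly(A) RNA of mouse liver was sequenced in 12 libraries, and groups were taken from the labels' genotype and treatment. Per the submitters' processing notes, bcl2fastq, TopHat2 2.0.4, Cufflinks and Cuffdiff were used with build mm9. The labels' protocols mention ERCC spike-in RNA. Annotation, filters and normalization: not given in the sources used here. Per the file headers, the authors deposited for each locus and comparison 1 FPKM per group together with the log2 fold, the Cuffdiff statistic (a score), its p-value and its q-value. Values per library and counts were not used, so depth is unknown and no SD can be given. The deposited q-value equals a Benjamini-Hochberg adjustment over 90828 tests of all 6 deposited comparisons, within 5.29e-07, and the authors' log2 fold matches the log2 ratio of both FPKM values within 1.29e-05. For values per library limma had been planned, and for group values the authors' Cuffdiff test, which applied. Folds run tunicamycin over DMSO and LsATF4-KO over wild type. Where a symbol stood at several loci, the most abundant locus without a second gene's name represented it.

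The difference of both tunicamycin responses was divided by its standard error. Each response's standard error came from the authors' deposited log2 fold and test statistic, rescaled by 1.73 to match the deposited p-values. The result was tested by a two-sided normal test with Benjamini-Hochberg adjustment over 14510 loci. The procedure was run on simulated data in which 1 scale held at every locus, so it could not check that assumption. All 10 members are named; from each of 5 lists of 105 genes in all, the rule named the 3 called genes with the largest fold and at least 5 FPKM per tunicamycin or genotype-under-tunicamycin comparison, and every gene called between genotypes with DMSO. A gene that the rule also named is not reported here. Marker lists held 77 genes, of which 74 were matched. The members, the lists and the tests were chosen with earlier results of these data known. Figures were drawn with matplotlib 3.10.9, and values computed with scipy 1.17.1, pandas 2.3.3 and numpy 2.4.6 under Python 3.11.15.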

Additional observations from a re-analysis of the deposited data

Results flagged for a closer look

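Of the genes that the naming rule chose from the lists, 3 had a tunicamycin response that differed between genotypes by the test of the difference itself, LsATF4-KO minus wild type on the log2 scale, computed from the authors' deposited table. The difference was -1.47 for the adaptor gene Grb10 (adjusted p = 0.0172), which rose in both genotypes. It was 1.59 for the binding protein gene Igfbp5 (adjusted p = 0.00226), which fell in both. It was 2.76 for Hao2 (adjusted p = 2.55e-10), which was called higher with tunicamycin in LsATF4-KO and lower in wild-type mice. All 3 use the LsATF4-KO DMSO group, whose lane cannot be told apart from its genotype and treatment. They also use the LsATF4-KO tunicamycin group, where adrenal, muscle and fat markers were high. The part of that RNA in them was not tested.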

How the results depend on the processing

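No paired analysis was possible because the authors' deposited table holds 1 value per group, and leaving out a replicate was not possible for the same reason. With a minimum fold of 2, the 1 member called between genotypes with DMSO became 0. Over all loci the authors' deposited table called 423 between genotypes with DMSO, and 105 with q adjusted within the comparison, 170 with q under 0.01 and 105 with at least 2-fold. A fold of at least 2 left 3372 of 5566 calls in wild-type mice and 3007 of 5121 in LsATF4-KO mice for tunicamycin. Between genotypes under tunicamycin 883 loci were called, and 557 with q adjusted within the comparison, 557 with q under 0.01, 534 with at least 2-fold and 486 with at least 1 FPKM in both groups. With the second locus of Cish and Bcl6, an alternative chosen after seeing the data, 1 member was called there. The count of loci with a different tunicamycin response was 147, and 19 with the deposited statistic unscaled and 91 with adjusted p under 0.01, with 0 members in each setting tried. With a standard error taken from each deposited p, an alternative chosen after seeing the data, 133 loci were called, 132 of them among the 147, and 0 members. Other thresholds, which leave the fold as it is, took the call from 7 single-member results and gave it to 1. Pseudocounts, median scaling and summed loci, which do not rerun the authors' test, turned no member's direction. The calls lost were those of Igf1 (both responses, q under 0.01), Igfbp2 (both responses, at least 2-fold), Bcl6 (LsATF4-KO response, both settings) and Socs2 (DMSO, at least 2-fold), and the call gained was that of Stat5b in LsATF4-KO mice (q = 0.0478 within the comparison). Whether 1 library carries a group's value was not tested, as the table pools libraries.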

Other observations

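Another 3 listed genes passed the test of a different tunicamycin response between genotypes, and they are named here after their values were seen. Igfbp6, a binding protein gene with a preference for IGF2, stood at 2.40 FPKM in LsATF4-KO with tunicamycin, 0.840 in LsATF4-KO with DMSO, 0.617 in wild type with tunicamycin and 1.32 in wild type with DMSO in the authors' deposited table. The difference of its log2 responses was 2.61 (adjusted p = 0.0109, computed from the authors' deposited table), in the group where adrenal, muscle and fat markers were high, whose part in it was not tested. Hsd3b5, a male-biased steroid dehydrogenase gene, stood at 0.452, 5.0, 3.41 and 6.71 FPKM in the same order of groups, with a difference of -2.49 (adjusted p = 0.00457). It was called lower with tunicamycin in both genotypes in the authors' deposited table. The merged Sult2a1 locus, a group of near-identical sulfotransferase genes, stood at 292, 333, 309 and 642 FPKM in the same order of groups, with a difference of 0.87 (adjusted p = 2.01e-05), although neither response was called in the authors' deposited table. Its deposited p-values are larger than its test statistics imply, and with a standard error taken from them the adjusted p was 1.00, so its difference does not stand on both measures. Of the 147 loci with a different response, 8 had neither response called in the authors' deposited table.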
